A study of Mus musculus with 5 samples.

Results

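The MHC class II genes of the mouse and their regulator were followed through bone marrow (BM) monocytes and neutrophils. The members are 8 genes, chosen by symbol out of the 23234 genes listed for every library: the classical chains H2-Aa, H2-Ab1 and H2-Eb1, the invariant chain Cd74, the peptide exchange genes H2-DMa, H2-DMb1 and H2-DMb2, and the transcriptional coactivator Ciita. The study profiled sorted cells of Ym1-Venus mice by RNA-seq, in which the fluorescent protein Venus reports Ym1 (Chil3), a chitinase-like protein of myeloid cells. Ly6C+CD115+ monocytes were sorted as Venus+ cells (Ym1+Ly6Chi monocytes) and as Venus- cells (Ym1-Ly6Chi monocytes) from BM 48 h after an intravenous injection of LPS at 100 µg per mouse. Naive monocytes were Ly6C+CD115+Venus- cells of untreated mice, and neutrophils were Ly6G+ cells taken 48 h after LPS or from untreated mice. All mice were of the C57BL/6 strain, were 7 weeks old and carried 1 Ym1-Venus allele (+/Ym1Venus), so the untreated mice carried it too and no library came from mice without it. Each of the 5 conditions is 1 library, and the sources used here do not say how many mice it came from.

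MHC class II molecules present peptides from endosomes to CD4+ T cells. The alpha and beta chains pair in the endoplasmic reticulum with the invariant chain, encoded by Cd74, which fills the peptide groove and directs the complex to endosomes, where proteases cut it down to a short remnant. H2-DM, a dimer of H2-DMa with H2-DMb1 or H2-DMb2, then exchanges this remnant for other peptides, and H2-O restrains H2-DM. Transcription of the family rests on the coactivator CIITA, which binds no DNA itself but docks on RFX, NF-Y and CREB at the conserved X and Y boxes of the promoters. Mice of the C57BL/6 strain make no functional E alpha chain, so their E beta chain has no regular partner. In myeloid cells, class II is highest in dendritic cells and is usually low in BM monocytes and neutrophils.

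The letters in front of the annotated starts are shown first, because the Y box is known as a shared feature of class II promoters. RefSeq promoters of the GRCm38.p6 assembly were matched by symbol for 5 of the 8 members, with 6 starts, and the 250 bases before each start were searched on both strands. There is no entry for H2-Ab1, Cd74 and Ciita. Each line below gives the bases that end at the start itself, read 5′ to 3′ in the direction of the gene, with matches to CCAAT or its reverse ATTGG in capitals and, for H2-Aa, the overlapping TGACG and CGTCA in capitals as well.
H2-Aa (chr17:34287824-34287933, minus strand): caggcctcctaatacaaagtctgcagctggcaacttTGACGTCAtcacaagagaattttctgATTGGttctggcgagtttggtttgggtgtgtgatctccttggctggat
H2-Eb1 (chr17:34305757-34305866, plus strand): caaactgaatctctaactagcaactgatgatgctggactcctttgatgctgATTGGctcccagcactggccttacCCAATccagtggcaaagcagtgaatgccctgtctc
H2-DMb1 (chr17:34153081-34153190, plus strand): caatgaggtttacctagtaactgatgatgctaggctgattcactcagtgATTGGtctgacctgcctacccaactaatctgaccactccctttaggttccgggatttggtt
H2-DMb2 (chr17:34145099-34145248, plus strand): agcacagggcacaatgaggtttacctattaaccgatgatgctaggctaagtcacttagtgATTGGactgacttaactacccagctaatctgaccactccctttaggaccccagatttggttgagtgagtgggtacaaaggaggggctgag
H2-DMa, first of 2 starts (chr17:34122722-34122831, plus strand): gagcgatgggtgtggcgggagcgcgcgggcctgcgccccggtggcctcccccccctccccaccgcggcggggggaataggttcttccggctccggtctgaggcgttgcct

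The Y box core was found before 5 of the 6 starts, against 33.9% of all 32851 promoters in the table. It began at -48 before H2-Aa, -61 before H2-DMb1 and -90 before H2-DMb2, and H2-Eb1 held it at -59 and again, in the other direction, at -35. In these 4 genes it stood within the same 7 letters, TGATTGG, which occur in 2375 promoters. The letters TGACG, the core of CREB binding sites, was found before H2-Aa alone among the members and in 17.8% of all promoters. Its forward and reverse copies overlap there from -74 to -67. H2-Eb1 and H2-DMb1 share the 13 letters AACTGATGATGCT, which begin at -89 and -92, further from the start than the Y box core, and no other promoter of the table holds them. H2-DMb2 keeps the last 9 of these letters, GATGATGCT, which occur in 73 promoters. H2-DMb1 and H2-DMb2 also share 23 letters, CTAATCTGACCACTCCCTTTAGG, which stand in these 2 promoters and no other. The first start of H2-DMa has 74% G or C and 27 CG pairs in 250 bases, where the median promoter has 52.4% G or C. It held none of the letters searched, and its second start held ATTGG at -198. The STAT motif TTCNNNGAA was found before H2-DMb2, at -218, and in 7.02% of all promoters. The E box CACGTG was found before none of the 6 starts and in 6.02% of all promoters. A match is a string of letters and not evidence of binding.

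**Figure D1:**
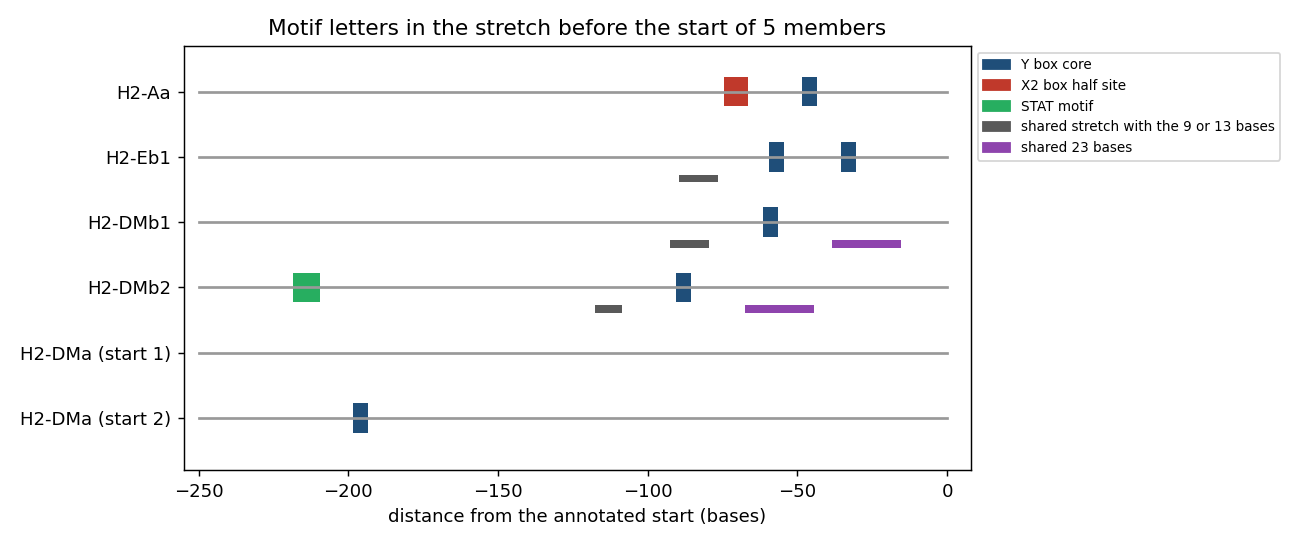
Position of the motif letters in the 250 bases before 6 annotated starts of 5 members, in bases from the start; thick bars are matches on either strand and thin bars are stretches shared between members. The Y box core lies between -90 and -31 in H2-Aa, H2-Eb1, H2-DMb1 and H2-DMb2, and the first start of H2-DMa has no match.

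Levels are given as FPKM, fragments per unit of transcript length and of sequencing depth, as the authors deposited them. With 1 library per condition no test could be made, and a difference between libraries cannot be set against the spread between mice. Depth was read from the steps between low values. Relative to the Ym1+ library it was 44.7% in the Ym1- library, 62.4% in naive monocytes, 80.8% in neutrophils after LPS and 97.4% in naive neutrophils. An FPKM of 10 on a 2 kb transcript then stands for an estimated 190 fragments in the Ym1+ library and 85.0 in the Ym1- library. The fragments and the 95% intervals below follow from these estimates and cover counting error only. The labelled cell types were set beside some of their markers. The Ym1 gene itself, listed as Chi3l3, had an FPKM of 1759 in the Venus+ and 386 in the Venus- monocytes after LPS, and of 430 in naive monocytes. In the neutrophils it stood at 1712 after LPS and 1484 without. Ccr2, the receptor that lets monocytes leave the BM, stood at 434 to 499 FPKM in the 3 monocyte libraries and at 0.986 to 1.13 in the neutrophils. Ngp, a granule protein of neutrophils, stood at 36159 and 38174 FPKM in the neutrophils and at 46.2 to 387 in the monocytes. Of 8 monocyte markers, 6 were at least 2-fold lower in naive neutrophils than in naive monocytes, and Fcgr3 and Itgam were higher. Fcgr3 stood at 448 and 470 FPKM in the neutrophils and at 166 to 219 in the monocytes. Itgam stood at 678 and 691 FPKM in the neutrophils and at 101 to 185 in the monocytes.

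The classical chains were highest in naive monocytes, lower in Ym1-Ly6Chi monocytes and close to the neutrophil level in Ym1+Ly6Chi monocytes. H2-Aa, the A alpha chain, had an FPKM of 22.5 in naive monocytes, 7.91 in Ym1-Ly6Chi monocytes and 0.441 in Ym1+Ly6Chi monocytes, with 0.340 in naive neutrophils and 0.136 in neutrophils after LPS. These values rest on 127, 32, 4, 3 and 1 fragments. The first 3 levels are separated from each other by the counting intervals of their ratios, whereas the Ym1+ level is not separated from that of naive neutrophils (ratio 1.30, 0.220 to 8.87). H2-Ab1, its A beta partner, had an FPKM of 26.2 in naive monocytes, 9.29 in Ym1-Ly6Chi monocytes and 1.25 in Ym1+Ly6Chi monocytes, with 0.835 in neutrophils after LPS and 0.595 in naive neutrophils. The order among the monocytes was the same as for H2-Aa, and the interval of the ratio between the Ym1+ level and that of neutrophils after LPS again included 1 (1.502, 0.556 to 4.44). In naive monocytes the 2 chains of the A molecule were near each other per length, with 1.17 times as much H2-Ab1 as H2-Aa (0.922 to 1.48).

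H2-Eb1, the E beta chain, was the lowest of the 3 chains in naive monocytes. Its FPKM was 5.14 in naive monocytes, 1.31 in Ym1-Ly6Chi monocytes, 0.469 in naive neutrophils, 0.391 in Ym1+Ly6Chi monocytes and 0.0806 in neutrophils after LPS. Only naive monocytes stand clear of the next library here (ratio 3.91, 1.90 to 9.04), since the other 4 libraries held 9, 7, 6 and 1 fragments. H2-Ea-ps, the E alpha gene of this strain, and H2-Eb2 are listed at 0 in all 5 libraries.

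Cd74, the invariant chain, was the member with the clearest steps between all 5 libraries. It had an FPKM of 117 in naive monocytes, 45.9 in Ym1-Ly6Chi monocytes, 13.4 in Ym1+Ly6Chi monocytes, 3.85 in naive neutrophils and 1.27 in neutrophils after LPS. The ratio of each level to the next was between 2.54 and 3.48, and the counting interval of every such ratio lay above 1. Unlike H2-Aa and H2-Ab1, Cd74 was thus still 3.48 times the level of naive neutrophils in Ym1+Ly6Chi monocytes (2.54 to 4.87).

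Among the monocytes the H2-DM genes varied over a smaller fold range than the chains, and H2-DMa was the highest member per length in each library but naive neutrophils. H2-DMa, the alpha chain of the exchange dimer, had an FPKM of 234 in naive monocytes, 138 in Ym1-Ly6Chi monocytes and 101 in Ym1+Ly6Chi monocytes, with 5.10 in naive neutrophils and 4.09 in neutrophils after LPS. The monocytes form 1 high group here and the neutrophils 1 low group, and the lowest monocyte library was 19.7 times the higher neutrophil library (16.0 to 24.4). H2-DMb1, a beta chain, had an FPKM of 55.7, 33.6 and 22.4 in naive, Ym1-Ly6Chi and Ym1+Ly6Chi monocytes, and 3.45 and 1.64 in naive neutrophils and neutrophils after LPS. H2-DMb2, the other beta chain, had an FPKM of 24.4, 13.6 and 10.003 in the same monocytes, and 10.3 and 3.04 in the neutrophils. On the FPKM scale naive neutrophils held as much H2-DMb2 as Ym1+Ly6Chi monocytes within counting error (ratio 1.03, 0.807 to 1.31). That equality depends on the scale. With median-of-ratios scaling the log2 difference of H2-DMb2 from naive monocytes was -0.38 in naive neutrophils and -1.11 in Ym1+Ly6Chi monocytes.

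Ciita was the lowest member in every library. Its FPKM was 1.06 in naive monocytes, 0.743 in Ym1-Ly6Chi monocytes, 0.0781 in Ym1+Ly6Chi monocytes, 0.0402 in naive neutrophils and 0.0241 in neutrophils after LPS. These are 34, 17, 4, 2 and 1 fragments. Naive and Ym1-Ly6Chi monocytes were not separated (ratio 1.42, 0.779 to 2.74), whereas Ym1-Ly6Chi monocytes held 9.51 times the Ciita level of Ym1+Ly6Chi monocytes, with an interval from 3.10 to 38.8.

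**Figure D2:**
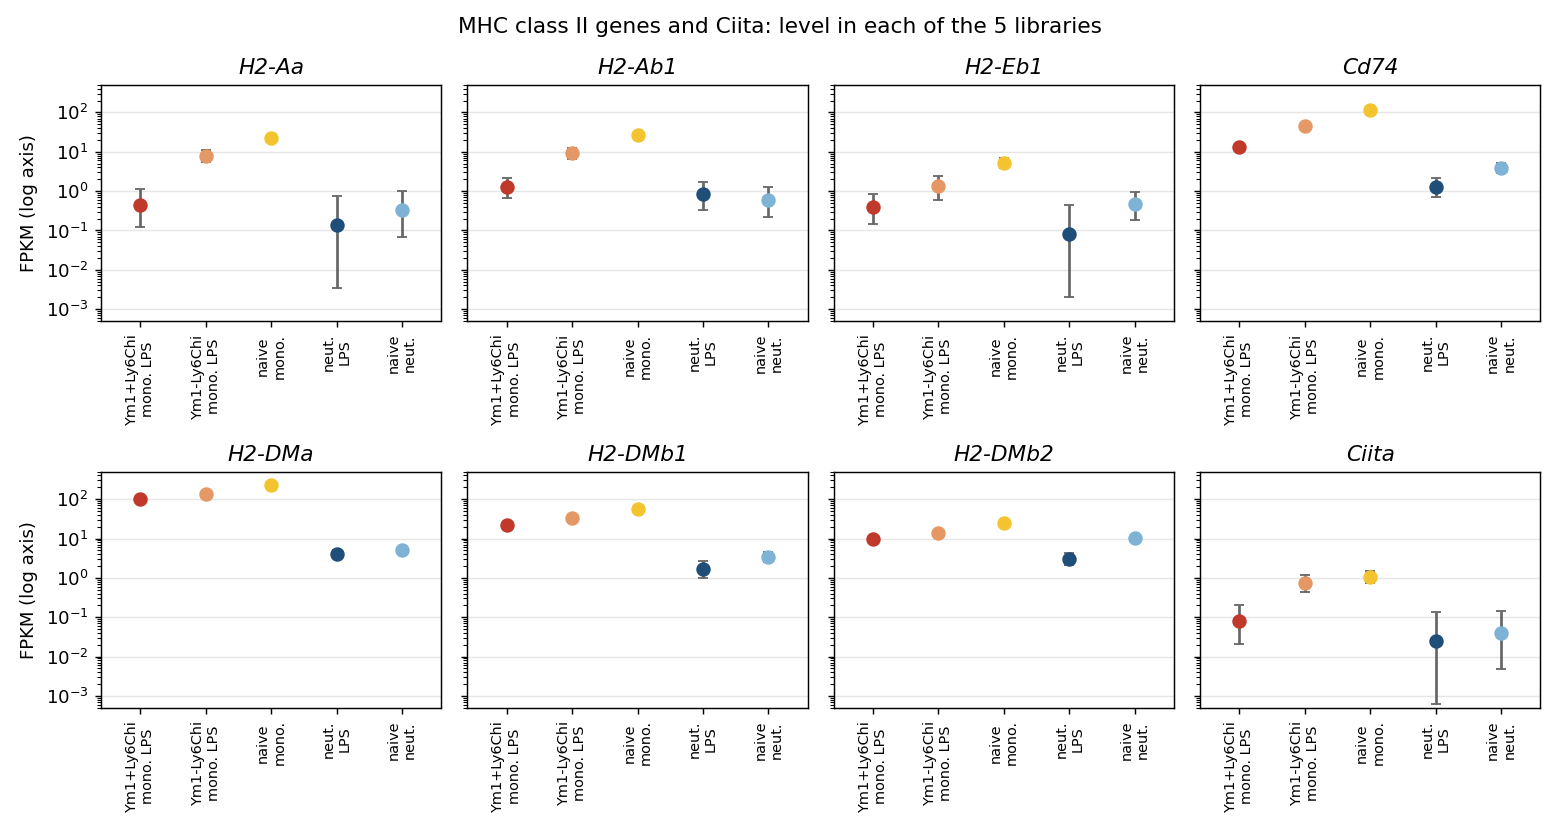
FPKM of the 8 members in the 5 libraries on a log axis, 1 point per library; bars are 95% Poisson intervals for counting error, from estimated fragments. Naive monocytes are the highest library for all 8 genes, and in Ym1+Ly6Chi monocytes the intervals of H2-Aa, H2-Ab1, H2-Eb1 and Ciita overlap those of the neutrophils while those of Cd74, H2-DMa and H2-DMb1 do not.

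Ym1+Ly6Chi and Ym1-Ly6Chi monocytes were sorted from mice given the same LPS treatment, so this comparison asks how class II differs with the Ym1 reporter. Differences are in log2(FPKM + 1), which understates the change of low genes, taken for each gene that reached an FPKM of 1 in 1 or both libraries. Of the 8 members 7 entered, Ciita being too low, and 3 were at least 2-fold lower (called 2-fold lower or higher from here) in Ym1+Ly6Chi monocytes, where 1.18% of all 10489 genes were lower and 1.38% higher. No member was 2-fold higher. The 3 were H2-Aa at -2.63, H2-Ab1 at -2.19 and Cd74 at -1.70. As ratios of FPKM, the Ym1- level was 17.9 times the Ym1+ level for H2-Aa (6.34 to 69.6), 7.41 times for H2-Ab1 (3.90 to 14.99) and 3.43 times for Cd74 (2.83 to 4.17). H2-Eb1 differed by -0.73 on the log2 scale, yet its Ym1+ level was 0.298 times the Ym1- level (0.0874 to 0.938), close to the ratio of Cd74 although its FPKM is low beside the added 1. That interval rests on 6 and 9 fragments. With the median transcript length they would be 4.02 and 6.04, so the separation of H2-Eb1 is uncertain. The H2-DM genes differed by -0.45 for H2-DMa, -0.56 for H2-DMb1 and -0.41 for H2-DMb2. Their Ym1+ levels were 0.730, 0.667 and 0.736 times the Ym1- levels, and on the FPKM scale the interval of each ratio stayed below 1. For H2-DMb2 it did so narrowly (0.557 to 0.971). With median-of-ratios scaling its difference was -0.34, so its separation is uncertain. The median difference over all 8 members was -0.71 and that over all genes tested -0.06. A gene can enter this count through the library in which it is high, as H2-Eb1 and H2-Aa did, so the count is a description and not support for the difference.

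Against naive monocytes both LPS populations were lower, and the chains and Cd74 lay further below than the H2-DM genes. In Ym1-Ly6Chi monocytes all 8 members entered and 4 were at least 2-fold lower, with 4.72% of all 10714 genes lower and 2.86% higher. These 4 were the chains and Cd74, which lay together between -1.41 and -1.33. The H2-DM genes lay between -0.80 and -0.71, and Ciita differed by -0.24. Counting intervals of the ratio to naive monocytes overlapped in part here, as for H2-Aa (0.231 to 0.521) and H2-DMb2 (0.429 to 0.719). Those of Cd74 (0.342 to 0.450) and H2-DMa (0.550 to 0.631) did not. In Ym1+Ly6Chi monocytes 7 of the 8 members were at least 2-fold lower, with 4.51% of all 10698 genes lower and 2.59% higher. The chains and Cd74 spread out here, with H2-Aa at -4.03, H2-Ab1 at -3.59, Cd74 at -3.03 and H2-Eb1 at -2.14, while the H2-DM genes stayed together between -1.27 and -1.21. Ciita differed by -0.93 and passed 2-fold with a smaller pseudocount (-2.70 with 0.1). Both comparisons use the same naive library, so they are not independent of each other. The median over the 8 members was -1.06 in the first and -1.71 in the second, beside medians of all genes of 0.00 and -0.06.

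Expressed as a share of naive monocytes, the chains and Cd74 stood at 25.6% to 39.3% in Ym1-Ly6Chi monocytes and at 1.96% to 11.5% in Ym1+Ly6Chi monocytes. The H2-DM genes stood at 55.6% to 60.4% and at 40.3% to 43.0%. Ciita stood at 70.3% and at 7.39%. In the first population its ratio rests on 17 and 34 fragments, with an interval of 0.365 to 1.28. That interval holds the levels of the H2-DM genes and of Cd74, so Ciita cannot be placed with either. In the second population it lay among the chains (interval 0.0189 to 0.206). Summed over the 4 genes, the FPKM of the chains and Cd74 was 171, 64.4 and 15.5 in naive, Ym1-Ly6Chi and Ym1+Ly6Chi monocytes, and summed over the 3 H2-DM genes it was 314, 185 and 133. In a bulk library, fewer cells that express a gene and less RNA per cell cannot be told apart.

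**Figure D3:**
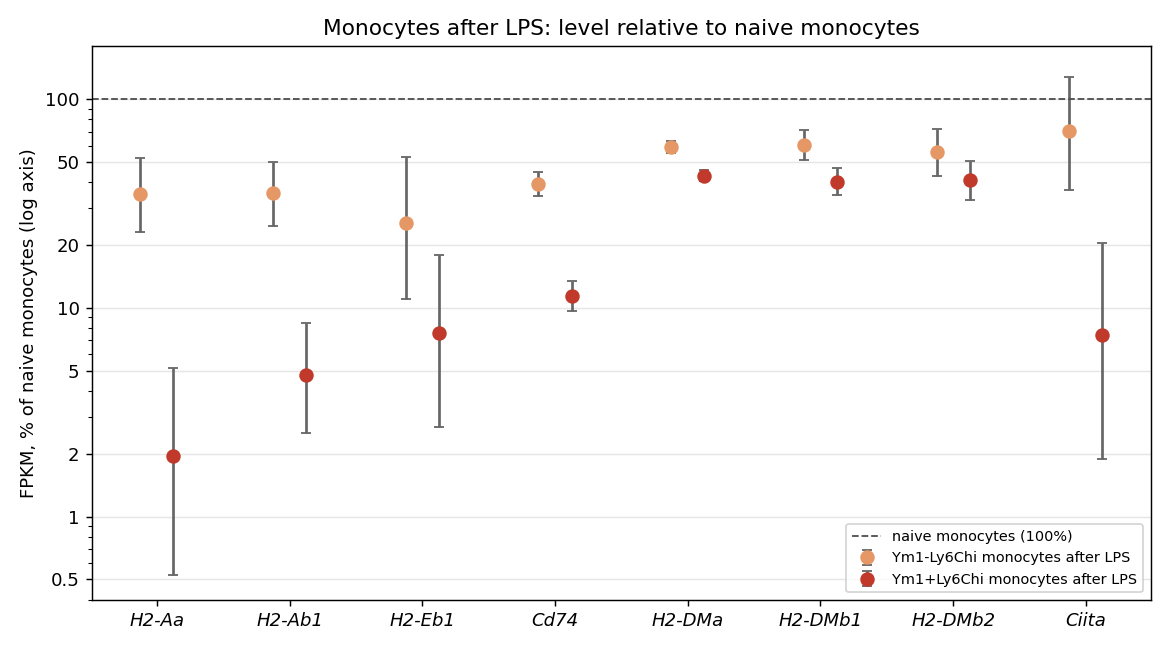
Level of each member in the 2 LPS monocyte libraries as a percentage of the naive monocyte library, on a log axis; bars are 95% intervals of the ratio for counting error only, and the dashed line marks naive monocytes. In Ym1+Ly6Chi monocytes the 3 H2-DM genes lie at 40.3% to 43.0% while the chains and Cd74 lie at 1.96% to 11.5%.

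The proportions between the members differed from library to library. H2-DMa over Cd74 was 2.004 in naive monocytes (1.86 to 2.16), 3.001 in Ym1-Ly6Chi monocytes (2.63 to 3.44) and 7.51 in Ym1+Ly6Chi monocytes (6.45 to 8.82). The 3 intervals do not overlap. Cd74 over H2-Aa was 5.19 in naive monocytes (4.32 to 6.32) and 5.81 in Ym1-Ly6Chi monocytes (4.03 to 8.68), which overlap, and 30.3 in Ym1+Ly6Chi monocytes (11.6 to 113). H2-DMa over H2-DMb1 stayed between 4.10 and 4.48 in the monocytes, with overlapping intervals.

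The 2 beta chain genes of H2-DM kept 1 proportion in the monocytes and another in the neutrophils. H2-DMb2 over H2-DMb1 was 0.446, 0.404 and 0.439 in Ym1+Ly6Chi, Ym1-Ly6Chi and naive monocytes. It was 2.98 in naive neutrophils (2.11 to 4.25), so the lesser beta chain gene of the monocytes was the greater one there. In neutrophils after LPS it was 1.86 (1.01 to 3.45), an interval that barely clears 1. That interval rests on 18 H2-DMb1 fragments, counted with the longest transcript. With the median transcript length they would be 8.70, so the order of the 2 genes after LPS is uncertain. The 2 genes are near copies. Their longest annotated transcripts are identical at 94.6% of aligned bases, and 26.6% of the 50-base windows of H2-DMb1 also occur in H2-DMb2, so some reads could belong to either and the split between them is uncertain. The sources used here do not give how the authors' counting shared such reads.

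**Figure D4:**
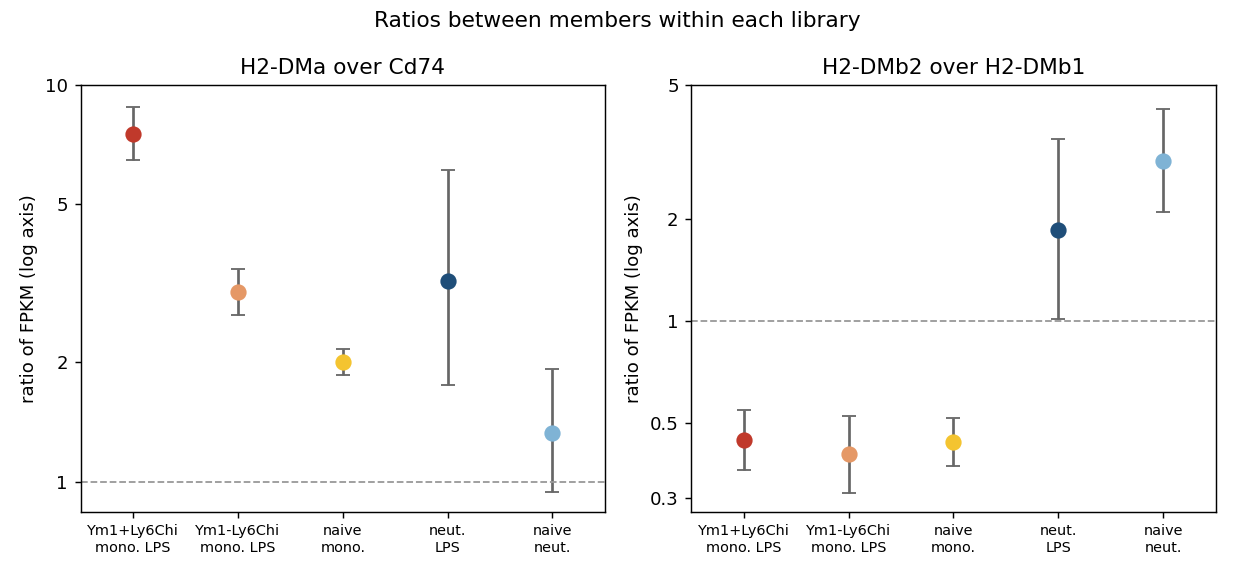
Ratio of FPKM between 2 pairs of members within each library, on log axes; bars are 95% intervals for counting error and the dashed line is 1. H2-DMa over Cd74 goes from 2.004 in naive monocytes to 7.51 in Ym1+Ly6Chi monocytes, and H2-DMb2 over H2-DMb1 is between 0.404 and 0.446 in the 3 monocyte libraries. The latter ratio is above 1 in both neutrophil libraries, with an interval after LPS that starts at 1.01.

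In neutrophils, LPS and class II were compared on 4 members, since H2-Aa, H2-Ab1, H2-Eb1 and Ciita were below an FPKM of 1 in both libraries. Cd74 and H2-DMb2 were at least 2-fold lower after LPS, at -1.09 and -1.48, where 5.35% of all 9583 genes were lower and 8.96% higher. Cd74 after LPS was 0.331 times its naive level (0.172 to 0.621) and H2-DMb2 was 0.296 times (0.201 to 0.436). H2-DMb1 differed by -0.75 with a ratio of 0.475 (0.263 to 0.850), and H2-DMa by -0.26 with a ratio whose interval included 1 (0.802, 0.572 to 1.11). The interval for H2-DMb1 rests on the longest transcript and includes 1 with the median transcript length. The median over all 8 members was -0.35 and that of all genes tested 0.07.

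Against naive monocytes, naive neutrophils had all 8 members in the comparison and 7 at least 2-fold lower. Here 42.7% of all 10944 genes were lower and 10.8% higher, and the median of all genes was -0.79, so a lower level is common to much of the transcriptome on this scale. H2-DMa differed by -5.27, Cd74 by -4.60, H2-Aa by -4.13, H2-Ab1 by -4.09, H2-DMb1 by -3.67 and H2-Eb1 by -2.06. These 6 lie below the median of all genes by more than 1. H2-DMb2 at -1.17 lies near it. Ciita differed by -0.98, a value bounded by its low FPKM beside the added 1. With a pseudocount of 0.1 it was -3.05 beside a median of all genes of -0.92, and its naive neutrophil level, 2 fragments, was 0.0380 times that of naive monocytes (0.00438 to 0.147). With median-of-ratios scaling the median of all genes became -0.03, the share of higher genes among those counted went from 20.2% to 48.0%, and H2-DMb2 differed by -0.38 and was no longer 2-fold lower. S100a8 and S100a9, calcium-binding proteins abundant in neutrophils, took 29.96% of all FPKM in naive neutrophils and 0.172% in naive monocytes. Neutrophils after LPS against Ym1-Ly6Chi monocytes gave 7 of the 7 members that entered as 2-fold lower, with 40.8% of all 10676 genes lower and 11.0% higher. Their differences ran from -4.77 for H2-DMa to -1.10 for H2-Eb1, beside a median of all genes of -0.74. With median-of-ratios scaling 6 members remained 2-fold lower, that median was -0.01, and the share of higher genes went from 21.2% to 50.9%.

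**Figure D5:**
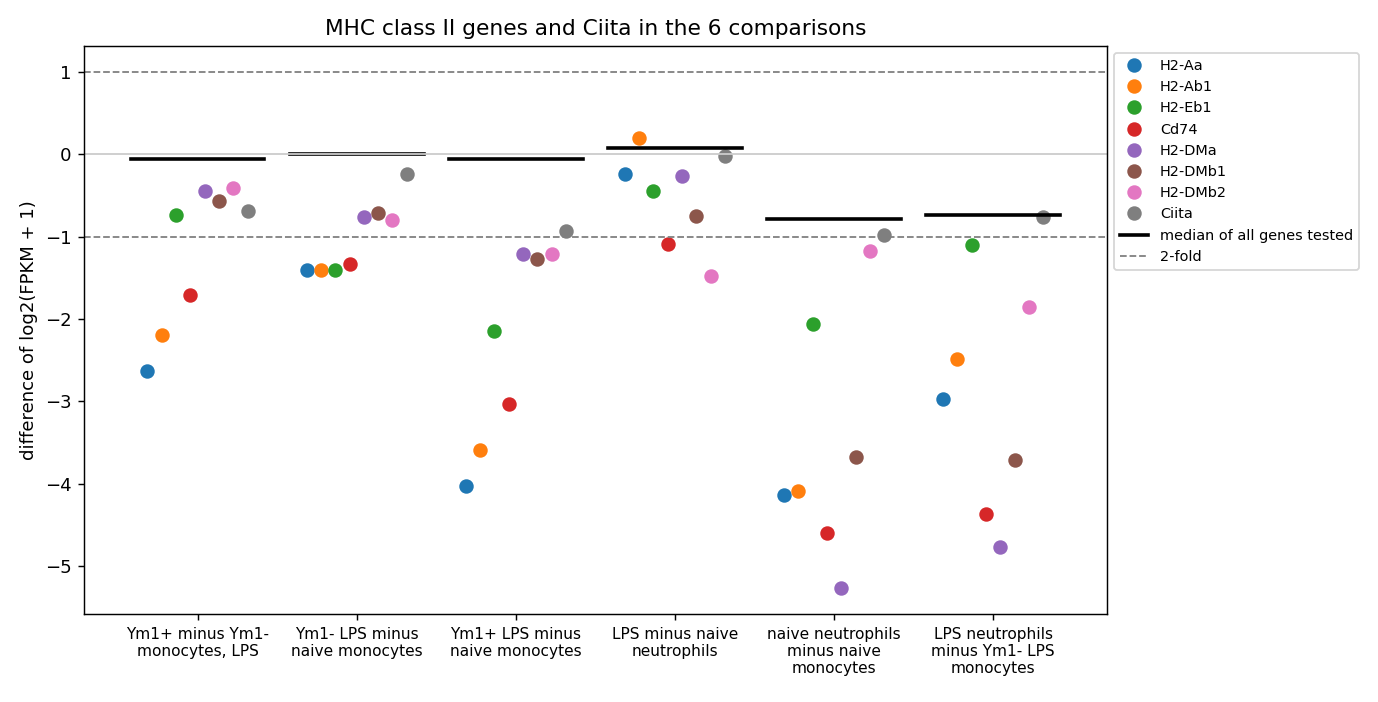
Difference in log2(FPKM + 1) of each member in the 6 comparisons, 1 point per gene, including members that did not reach an FPKM of 1; thick lines are medians of all genes tested and dashed lines mark 2-fold. No member is 2-fold higher in any comparison, and the neutrophil to monocyte comparisons have medians of all genes of -0.79 and -0.74.

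The rest of the class II machinery gave few 2-fold differences among the monocytes, as did all genes tested. Between the Ym1 populations 1.18% of all genes were lower and 1.38% higher. Against naive monocytes 4.72% were lower and 2.86% higher in Ym1-Ly6Chi, and 4.51% and 2.59% in Ym1+Ly6Chi monocytes. H2-Oa, a chain of the H2-DM inhibitor H2-O, had an FPKM of 1.92, 2.28 and 2.70 in Ym1+Ly6Chi, Ym1-Ly6Chi and naive monocytes. H2-Ob, its partner, had 0.194, 0.173 and 0.555 FPKM in the same order, on few fragments, and at most 0.0398 in the neutrophils. H2-Oa was 2-fold lower in naive neutrophils than in naive monocytes, beside 42.7% of all genes. No other gene of this list reached an FPKM of 1, and between the neutrophils H2-Oa did not either, so no other could be counted. The DNA-bound complex on which CIITA docks was measured by 7 genes, Rfx5, Rfxap, Rfxank, Nfya, Nfyb, Nfyc and Creb1. None of the 7 was 2-fold apart in any comparison among the monocytes or between the neutrophils. Nfya, a subunit of the Y box factor NF-Y, was 2-fold lower in both comparisons of neutrophils with monocytes. It was 1 of 7 in each, beside 42.7% of all genes lower in the naive pair and 40.8% in the LPS pair. The summed FPKM of the 7 was 110, 114 and 129 in Ym1+Ly6Chi, Ym1-Ly6Chi and naive monocytes.

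Of 15 genes known to induce or modulate Ciita, none was 2-fold apart between Ym1+Ly6Chi and Ym1-Ly6Chi monocytes, over the 14 that entered. Against naive monocytes 2 of 15 were 2-fold lower in each LPS population, beside 4.72% of all genes for Ym1-Ly6Chi and 4.51% for Ym1+Ly6Chi monocytes. Irf4, a transcription factor of antigen-presenting cells, was among them in both, with an FPKM of 8.45 in naive monocytes, 1.15 in Ym1-Ly6Chi and 0.661 in Ym1+Ly6Chi monocytes. The other was Il10ra, a chain of the IL-10 receptor, in Ym1-Ly6Chi monocytes, at 29.1 against 60.2 FPKM, and its level of 29.9 in Ym1+Ly6Chi monocytes was just short of 2-fold, at -0.98. In Ym1+Ly6Chi monocytes it was Irf8, a factor of monocyte and dendritic cell development, at 127 against 271 FPKM. In neutrophils after LPS, of the 12 that entered, Ifngr1, a chain of the interferon gamma receptor, was 2-fold higher, at 134 against 47.9 FPKM. The share of all genes that were higher there was 8.96%. In naive neutrophils against naive monocytes 6 of the 15 were lower and 1 higher, beside 42.7% of all genes lower and 10.8% higher. In the LPS pair 4 of 14 were lower and 1 higher, beside 40.8% and 11.0% of all genes. Whether these small counts set the list apart from all genes was not tested.

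The endosomal proteases and helpers that trim the invariant chain and antigens were measured by 10 genes. Of these none was 2-fold apart between the Ym1 populations, and against naive monocytes 1, Ctsl, was 2-fold higher in each, at 50.5 FPKM in Ym1+Ly6Chi, 32.9 in Ym1-Ly6Chi and 13.7 in naive monocytes. Ctss, the main protease of the last step in invariant chain breakdown, had 552, 528 and 740 FPKM in the same order. Ifi30, a thiol reductase for antigens, had 1172, 1240 and 659 FPKM. In neutrophils after LPS, 3 of the 10 genes were 2-fold higher, Ctss, Ctsl and Ctsb, beside 8.96% of all genes. Cd74 and H2-DMb2 were lower in the same comparison. Against monocytes, 8 of 10 were lower in naive neutrophils and 7 of 10 in neutrophils after LPS, and Ctsd was higher in both. The shares of all genes lower in these pairs were 42.7% and 40.8%, and those of genes higher 10.8% and 11.0%.

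Among 7 genes of surface turnover and costimulation, of which 5 entered, Cd40 was 2-fold lower in Ym1+Ly6Chi monocytes than in either other monocyte library, at 2.68 against 7.53 in Ym1-Ly6Chi and 10.8 in naive monocytes. It is the receptor through which T cells activate presenting cells, and it is listed at 0 in both neutrophil libraries. The costimulatory ligand Cd86 went the other way without reaching 2-fold, at 11.8, 9.52 and 6.38 FPKM. None of the list was 2-fold apart between Ym1-Ly6Chi and naive monocytes or, over the 4 that entered, between the neutrophils. Cd40 was lower in naive neutrophils than in naive monocytes, 1 of 5 beside 42.7% of all genes. Cd40 and Cd86 were lower in neutrophils after LPS than in Ym1-Ly6Chi monocytes, 2 of 5 beside 40.8%. The 7 genes of the MHC class I pathway stood level. None was 2-fold apart in the 3 monocyte comparisons or, over the 6 that entered, between the neutrophils. B2m, the common class I light chain, had an FPKM of 2619, 2664 and 2556 in Ym1+Ly6Chi, Ym1-Ly6Chi and naive monocytes. Nlrc5, the class I counterpart of CIITA, had 6.70, 7.39 and 5.89 FPKM. Nlrc5 was lower in the neutrophils in both comparisons with monocytes, 1 of 7 in each beside 42.7% and 40.8% of all genes. H2-D1 and Tap2 were higher in neutrophils after LPS than in Ym1-Ly6Chi monocytes, 2 of 7 beside 11.0%.

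Dendritic cell markers, of another class II-bearing cell, had a summed level in the same order as the members among the monocytes, though not each marker did. Summed over 9 dendritic cell markers, the FPKM was 24.3 in naive, 6.16 in Ym1-Ly6Chi and 2.73 in Ym1+Ly6Chi monocytes, and 6.24 and 1.07 in naive neutrophils and neutrophils after LPS. Single genes carry much of these sums, with Cd209a at 12.7 in naive monocytes and Itgax at 5.22 in naive neutrophils. Flt3, a growth factor receptor of dendritic cells and their progenitors, had an FPKM of 5.02, 1.92 and 0.111 in naive, Ym1-Ly6Chi and Ym1+Ly6Chi monocytes. Cd209a, a lectin of monocyte-derived dendritic cells, was at 12.7 in naive monocytes, listed at 0 in Ym1-Ly6Chi and at 0.0746 in Ym1+Ly6Chi monocytes. Clec9a, a receptor of conventional dendritic cells, was at 1.18, 1.20 and 0.0348. Xcr1 was low and in the opposite order, at 0.208, 0.317 and 0.393, and Siglech was at 0.142, 0.195 and 0.00677. Batf3 was at 3.89 in naive monocytes and level between the Ym1 populations, at 1.68 in Ym1-Ly6Chi and 1.69 in Ym1+Ly6Chi monocytes. Zbtb46, a defining factor of conventional dendritic cells, was at or below 0.383 in all 5 libraries, and Ccr7 is listed at 0 in all 5. By count, Flt3 and Clec9a of the 3 that entered were 2-fold lower in Ym1+Ly6Chi than in Ym1-Ly6Chi monocytes. Against naive monocytes 2 of 4 were lower in Ym1-Ly6Chi and 3 of 4 in Ym1+Ly6Chi monocytes. The shares of all genes lower were 1.18%, 4.72% and 4.51% in the same order. In neutrophils Itgax alone entered and was lower after LPS. Against monocytes 3 of 5 were lower and 1 higher in naive neutrophils, beside 42.7% and 10.8% of all genes. After LPS 3 of 3 were lower, beside 40.8%. The part of these cells in the class II levels was not tested.

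Of 8 B cell markers only Cd79b passed an FPKM of 1 in any library, at 15.3 in naive, 10.96 in Ym1-Ly6Chi and 5.09 in Ym1+Ly6Chi monocytes, and it was 2-fold lower in Ym1+Ly6Chi than in naive monocytes. Ms4a1, Pax5 and Blk, known B cell genes, are listed at 0 in every monocyte library. The 4 T cell markers were at or below 0.306 in all 5 libraries. Beside the counts that follow stand the shares of all genes. Between the Ym1 populations 1.18% were lower and 1.38% higher. Against naive monocytes it was 4.72% and 2.86% for Ym1-Ly6Chi, and 4.51% and 2.59% for Ym1+Ly6Chi monocytes. Between the neutrophils it was 5.35% and 8.96%. For neutrophils against monocytes it was 42.7% and 10.8% in the naive pair, and 40.8% and 11.0% in the LPS pair. Of 8 neutrophil markers, 7 were 2-fold higher in Ym1+Ly6Chi than in Ym1-Ly6Chi monocytes, where class II was lower. Their summed FPKM was 13997 in Ym1+Ly6Chi, 1919 in Ym1-Ly6Chi and 1192 in naive monocytes, against 279771 and 290923 in neutrophils after LPS and naive neutrophils. Against naive monocytes 7 of 8 were higher in Ym1+Ly6Chi monocytes and 3 of 8 lower in Ym1-Ly6Chi monocytes, all 8 were higher in each neutrophil library than in the monocytes compared with it, and Retnlg was lower in neutrophils after LPS than in naive ones. The 8 monocyte markers summed to 4703, 4737 and 5129 FPKM in Ym1+Ly6Chi, Ym1-Ly6Chi and naive monocytes, and 1 of them, the chemokine receptor Cx3cr1, was 2-fold lower in all 3 monocyte comparisons, at 8.38, 19.8 and 88.0 FPKM. In the neutrophils, Cd14 was 2-fold higher and Csf1r lower after LPS, and against monocytes 6 of 8 were lower and 2 higher in naive neutrophils and 3 lower and 2 higher after LPS. Of 6 macrophage markers, C1qa, C1qb, C1qc and Vcam1 were 2-fold higher in Ym1+Ly6Chi than in Ym1-Ly6Chi monocytes, and the summed FPKM of the 6 was 117, 59.4 and 47.1 in Ym1+Ly6Chi, Ym1-Ly6Chi and naive monocytes. Against naive monocytes, 3 of the 4 that entered were higher in Ym1-Ly6Chi and 4 of 5 in Ym1+Ly6Chi monocytes. In neutrophils the same 4 genes were lower after LPS. In naive neutrophils 4 of 5 were higher and 1 lower than in naive monocytes, and in the LPS pair 1 was higher and 4 lower. The part of such cells in the class II levels was not tested.

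The genes most like 3 of the members were sought by the Euclidean distance between centred profiles of log2(FPKM + 1) over the 5 libraries, among 8828 genes that reached an FPKM of 5 in 1 library and were above 0 in 3. For H2-Aa the nearest was H2-Ab1 at a distance of 0.49, ahead of Cnn3 at 0.79, Upb1 at 0.86, Cd34 at 0.88 and Ckb at 1.17. Cd34, an adhesion protein of haematopoietic progenitors, had an FPKM of 20.3 in naive, 4.92 in Ym1-Ly6Chi and 0.972 in Ym1+Ly6Chi monocytes. For Cd74 the nearest were Serpinf1 at 0.76, Bmyc at 0.85, Fcgrt at 0.92, Bex6 at 0.92 and BC064078 at 1.09. Fcgrt, the neonatal Fc receptor heavy chain, had an FPKM of 31.3, 10.7 and 4.36 in the same monocytes. The nearest member to Cd74 was H2-DMb1, at a distance of 1.33. For Ciita, compared with 8829 genes, the nearest were Zfp553, Elmod3, Ttc33, Tab1 and BC029722, at distances from 0.26 to 0.34. Its own profile spans about 1 on the log2 scale, so many genes of small range lie near it.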

How the data were processed

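RNA-seq was made with 1 library per condition from BM monocytes and neutrophils of Ym1-Venus mice, grouped by their sample labels. For each library the authors deposited FPKM values of 23234 gene symbols. Their processing notes list Cufflinks 2.1.1, TopHat2 2.0.8 and mm9, with options and annotation not given in the sources used here. Because FPKM is not a count, no count model applies, and without replicates no test was made.

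For 6 pairs of libraries, log2(FPKM + 1) was subtracted with Python 3.11.15, numpy 2.4.6, pandas 2.3.3 and scipy 1.17.1, for each gene that reached an FPKM of 1 in 1 or both libraries. Genes at least 2-fold apart were counted. The members and gene lists were chosen with earlier results of these data known, so they give no independent support. All 8 members are named, every gene of the other lists could be named with its FPKM (some are not reported here), and the 5 nearest genes by profile were taken for H2-Aa, Cd74 and Ciita. H2-Ea and 2 ligase genes of the surface turnover list were not found under their symbols.

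Depth was read from the steps between low values of genes with 1 GENCODE transcript. Fragments of a member are its FPKM divided by that step, times a transcript length. That length was to be the longest annotated transcript. After the values were seen it was replaced for H2-Aa, H2-Ab1, H2-Eb1 and Ciita by the length at which their low values are whole fragments within 0.12, and it stayed for the other 4, whose fragments may be overstated. Poisson intervals and exact intervals of ratios, at 95%, cover counting error only. The steps were tested on simulated data. Promoters and gene models are of GRCm38, not mm9, so they give sequence, length and names only. Alternatives were another pseudocount, filters, thresholds, TPM and median-of-ratios scaling and other lengths.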

Additional observations from a re-analysis of the deposited data

Results flagged for a closer look

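No member met a rule for a closer look. In the macrophage marker list, 3 genes of the complement protein C1q were higher after LPS in 1 cell type and lower in the other. From naive to Ym1-Ly6Chi monocytes after LPS the log2 difference was 1.89 for C1qa, 3.74 for C1qb and 2.32 for C1qc, and in neutrophils it was -1.19, -1.40 and -1.56. Each condition is 1 library, and the difference between the cell types was not tested.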

How the results depend on the processing

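No library has a replicate, so the spread between mice is unknown and no library could be left out. No paired analysis was possible because each group has 1 library and no test was made. No member was 2-fold higher in any comparison under any of the 6 alternatives. With a 4-fold threshold, which by construction counts fewer genes, the members counted as lower were 0 of 4 for Ym1-Ly6Chi against naive monocytes, 4 of 7 for Ym1+Ly6Chi against naive monocytes and 0 of 2 for the neutrophils. With a filter at an FPKM of 5 the neutrophil count was 1 instead of 2, since Cd74 no longer entered, and with a pseudocount of 0.1 it was 3, with H2-DMb1 at -1.03. A pseudocount of 0.1 gave 4 members lower between the Ym1 populations, H2-Eb1 included at -1.52, and 8 rather than 7 for Ym1+Ly6Chi against naive monocytes. TPM gave the same counts, with Ciita at -1.02 in place of H2-Eb1 at -0.96 as the fourth between the Ym1 populations. Median-of-ratios scaling left 6 of 7 in both comparisons of neutrophils with monocytes. Over all genes, a pseudocount of 0.1 raised the lower genes from 124 to 297 between the Ym1 populations, from 506 to 808 and from 483 to 820 against naive monocytes and from 513 to 860 between the neutrophils, and the higher genes from 145 to 264 and from 306 to 487 in the first pair of comparisons. TPM gave 228 higher and 197 lower between the Ym1 populations and 785 and 732 lower against naive monocytes, and it took the share of higher genes between the neutrophils from 62.6% to 51.1%. The filter at 5 gave 96 higher and 71 lower, and median-of-ratios 80 lower, between the Ym1 populations. For neutrophils against monocytes median-of-ratios gave 2428 higher and 2634 lower in the naive pair, where there were 1184 and 4678, and 2344 higher and 2263 lower in the LPS pair, where there were 1173 and 4351. With the median transcript length, 18 rather than 20 of the 32 steps between neighbouring libraries had an interval above 1. The 2 that changed were H2-DMb1 between the neutrophils (0.897 to 4.999) and H2-DMb2 between Ym1-Ly6Chi monocytes and naive neutrophils (0.986 to 1.74). With the longest transcript the H2-Aa level of naive monocytes would rest on 430 fragments instead of 127.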
